A study of Mus musculus with 8 samples.

Results

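Transcript levels were compared between mouse livers labelled as Ctgf conditional knockout and livers of Ctgf floxed controls after an injury by ethanol and carbon tetrachloride (CCl4). The comparison held 4 of the 8 libraries of the series, 2 labelled knockout and 2 floxed controls, chosen by their labels alone, and every gene of the count table. The controls were homozygous for the floxed Ctgf allele, and the label of the other group gives no more than a conditional knockout of Ctgf. All 4 livers came from adult C57BL/6 mice, by label 8 to 10 weeks old (8 weeks in the design text). Liquid Lieber-DeCarli food with 1% ethanol was given over 2 days, then with 2% ethanol over 10 days. One CCl4 injection of 1 µl per g of body weight into the peritoneum followed, 2 days before the liver was taken. The remaining 4 libraries, Yap1 floxed livers with a GFP virus and livers with a Cre virus against Yap1, entered here only to estimate the spread between replicates. The Cre driver of the Ctgf knockout, the cells it acts in and the exons it removes were not stated in the labels or notes. Whether replicates were separate animals is not said by the labels, and the p-values therefore reflect only how far these samples spread, which may be technical.

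Ctgf encodes connective tissue growth factor (CCN2), a secreted matricellular protein of the CCN family that binds integrins, heparan sulfate and growth factors. Its transcription is known to be induced by YAP and TAZ bound to TEAD factors and by TGF-beta, and in liver it is made by stellate cells, endothelium, biliary cells and injured hepatocytes. It is best known there for promoting scar formation. CCl4 is converted to a toxic radical by the cytochrome P450 enzyme Cyp2e1 in pericentral hepatocytes, whose death is followed by entry of neutrophils and monocytes, hepatocyte division and repair.

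The deposited read counts summed to between 28478796 and 33488609 per library in the Ctgf line (26904021 to 33488609 over all 8 libraries). Levels are given in CPM, the count of a gene per 1000000 counts of the TMM-scaled library. Alb, which encodes albumin, the main plasma protein made by hepatocytes, stood at 33585 to 69274 CPM in the 4 libraries. The 20 genes listed for the exocrine pancreas, whose transcripts marked one Yap control library, summed to 3.53 to 6.46 CPM in the Ctgf line. Mitochondrially encoded genes took 2.74% to 3.29% of the counts. On the first principal component of the Ctgf line (54.8% of the variance) the controls lay at -7.40 and -5.54, Ctgf knockout replicate 1 at -33.9 and the library labelled knockout replicate 2 at 46.8. On the second (33.0% of the variance) the controls lay at -15.2 and -28.2 and both libraries labelled knockout above them, at 28.5 and 14.9. The Pearson correlation of log CPM across genes, which are not independent replicates, was 0.993 between the controls and 0.971 between the libraries labelled knockout.

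Ctgf itself (RefSeq symbol Ccn2; GRCm38 chromosome 10, 24595442 to 24598683) stood at 28.8 and 32.1 CPM in the floxed livers, at 8.02 CPM in Ctgf knockout replicate 1 and at 49.2 CPM in the library labelled knockout replicate 2. The libraries labelled knockout lay on opposite sides of both controls, 3.79-fold below and 1.62-fold above the control mean, so the label of replicate 2 is not borne out by its Ctgf level. Over both libraries it differed by -0.09 on the log2 scale (SE 0.69, n = 2 against 2, edgeR adjusted p = 1). Taken alone, replicate 1 lay at a log2 fold change of -1.92 (SE 0.45) and replicate 2 at 0.69 (SE 0.39), each with an edgeR adjusted p of 1 when the spread came from all 8 libraries. With the spread taken from the 2 Ctgf controls only, which leaves 1 residual degree of freedom, the adjusted p was 0.014 for replicate 1 and 0.019 for replicate 2. DESeq2 gave an adjusted p of 0.00832 for replicate 1. The difference between the libraries labelled knockout was -2.62 (SE 0.50, edgeR adjusted p = 0.40). These counts cover the whole gene. Transcript that lacks only some exons, or that comes from cells without Cre, is counted too, so they need not show the deletion. In what follows levels or medians are given for each library, since a value over both mixes a liver with low and a liver with high Ctgf.

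Of the 9 genes that the table holds within 500 kb of its start, Ctgf included, Enpp1, the nearest one tested on its 3′ side at 42.5 kb, stood at 22.9 and 22.7 CPM in the floxed livers and at 24.1 and 30.8 CPM in replicates 1 and 2. Stx7, 446 kb before it, ranged from 31.3 to 32.6 CPM over the 4 libraries, and Med23 from 23.4 to 28.5 CPM. These 3 were not low in replicate 1. Enpp3, at 178 kb, stood at 23.4 and 22.6 CPM in the floxed livers, at 20.9 CPM in replicate 1 and at 31.5 CPM in replicate 2, in the order of Ctgf but over a smaller range. Its log2 difference of replicate 1 from replicate 2 was -0.59 (SE 0.56, edgeR adjusted p = 0.85, and 0.0228 on the Ctgf line alone).

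Cyr61 (RefSeq Ccn1), which encodes the matricellular protein CCN1 and is another classical YAP target, was low in both libraries labelled knockout. It stood at 80.7 and 91.1 CPM in the floxed livers and at 39.9 and 42.4 CPM in replicates 1 and 2. The groups did not overlap, which was so for 32.2% of all genes tested (15.5% higher and 16.8% lower). The log2 fold change was -1.06 (SE 0.33, edgeR adjusted p = 1). By library it was -1.10 (SE 0.45) in replicate 1 and -1.02 (SE 0.45) in replicate 2. Across the Yap line Cyr61 ranged from 21.0 CPM (Yap control replicate 2) to 71.1 CPM (Yap1 knockout replicate 1). The Ctgf controls thus had the highest Cyr61 levels of the series. Wisp1 (CCN4) stood at 44.8 and 32.4 CPM in the floxed livers and at 44 and 26.4 CPM in those labelled knockout, so its groups overlapped. Nov, Wisp2 and Wisp3, the remaining CCN genes, were at or under 0.32 CPM in every library of the line.

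TEAD factors, through which YAP and TAZ act, bind the letters GGAATG. That motif, searched on both strands, lies in 14.7% of 32851 promoter windows of the RefSeq table (GRCm38.p6, 250 bases before to 50 after a gene's start). Among YAP targets outside the CCN family it lies in 7 of the 20 windows (35.0%), which is 7 of the 18 genes with a window (38.9%). Only 2 of the 6 CCN genes matched an entry. The upstream 250 bases of the Cyr61 window (chr3:145649986-145650235, minus strand) are printed because Cyr61 is the CCN gene that was low in both libraries labelled knockout; capitals mark the single match, on the opposite strand, 103 bases before the start.
Cyr61: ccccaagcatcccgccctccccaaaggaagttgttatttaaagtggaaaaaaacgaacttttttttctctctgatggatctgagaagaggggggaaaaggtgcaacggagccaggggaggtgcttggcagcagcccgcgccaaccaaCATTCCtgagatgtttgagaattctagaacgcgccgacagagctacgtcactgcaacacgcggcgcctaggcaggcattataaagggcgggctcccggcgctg

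**Figure D1:**
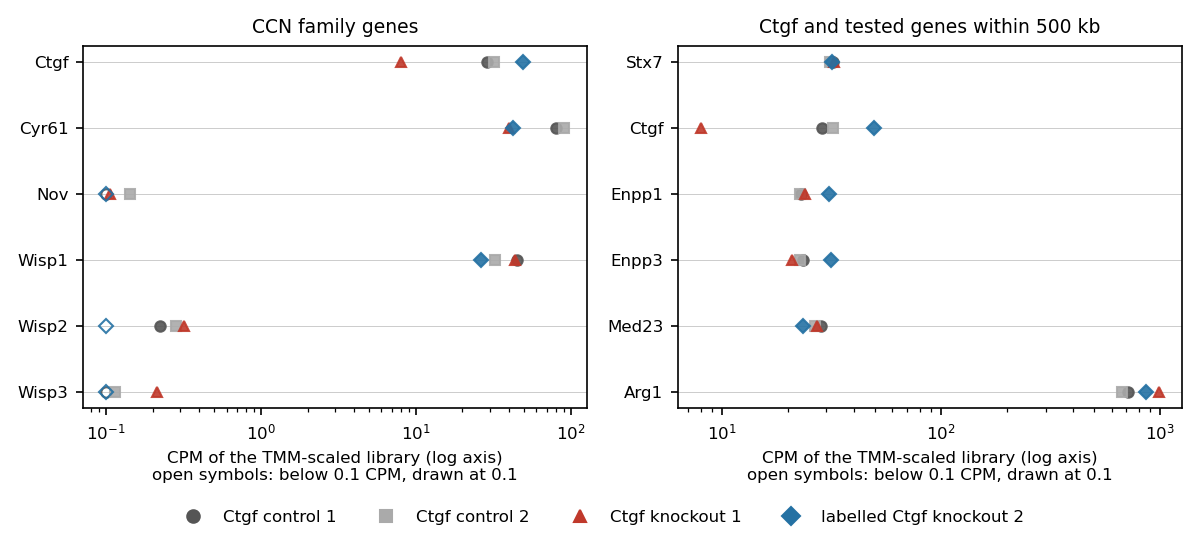
Levels in CPM (log axis) of the CCN genes, left, and of Ctgf with the tested genes within 500 kb, right (Moxd1, near 0, is not drawn); each symbol is 1 library, and open symbols lie below 0.1 CPM. Ctgf stood at 8.02 and 49.2 CPM in those labelled knockout, on either side of the controls at 28.8 and 32.1 CPM, while Cyr61 was below the controls in both.

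Set against the controls together, the libraries labelled knockout gave no gene past the threshold of adjusted p under 0.05 in either direction by edgeR's quasi-likelihood test (0 of 13999 genes tested, 0% called). At an unadjusted p under 0.05, 92 genes were higher (0.657%) and 185 lower (1.32%). On the Ctgf line alone edgeR also called 0 of 13385 genes, with 195 higher (1.46%) and 326 lower (2.44%) at an unadjusted p under 0.05. DESeq2 called 1 gene higher (0.00714%), Lpin1, and 3 lower (0.0214%), Ifi202b, Ndor1 and Tmprss11f, and limma-voom called Ifi202b alone. Tmprss11f was named after its value was seen. The genes described next were among the 10 with the smallest p in each direction among genes whose groups did not overlap, a choice that fixes their direction. Except for Ifi202b at 0.41, their edgeR adjusted p was 1.

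Ifi202b (chromosome 1, 173962569 to 173982844), which encodes an interferon-inducible DNA-binding protein of the Ifi200 family, was present in the controls and absent from the libraries labelled knockout. It had 235 and 273 counts (7.49 and 7.76 CPM) in the controls and 0 counts in replicates 1 and 2. With a floor of 3 counts per library it was at least 71.9-fold lower in replicate 1 and at least 79.9-fold lower in replicate 2. In the Yap line it had 0 CPM in 3 libraries and 0.0346 CPM in Yap1 knockout replicate 2, so the Ctgf controls were the libraries that stood apart. Its expression is known to differ between inbred mouse strains, and any part of strain background in this result was not tested. The family member Ifi203 stood at 14.3 and 16.3 CPM in the floxed livers and at 8.83 and 14.3 CPM in replicates 1 and 2. Ifi204 stood at 15 and 15.6 CPM against 11.1 and 20.0 CPM, so neither was absent. Reads of such close relatives may have been split between them in the authors' counting.

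Inflammatory and cell cycle genes were among those lower in both libraries. Tnf, the macrophage cytokine that starts the response to liver injury, stood at 6.38 and 5.80 CPM in the floxed livers and at 1.14 and 1.81 CPM in replicates 1 and 2 (log2 fold change -2.04, SE 0.45). Ccnd1, which encodes the cyclin D1 that carries hepatocytes from G1 into S phase, stood at 128 and 190 CPM in the floxed livers and at 81.3 and 71.6 CPM (log2 fold change -1.06, SE 0.26). Ier3, an immediate early survival gene, stood at 66.9 and 67.8 CPM against 34.3 and 39.8 CPM (log2 fold change -0.86, SE 0.23). In all 3 both libraries labelled knockout lay below both controls. Kupffer cell markers had a median of -0.77 in replicate 1 and -0.34 in replicate 2, of which the second turned to 0.04 without Ctgf control replicate 2, and their part in the Tnf values was not tested. Ppargc1a encodes PGC-1alpha, a coactivator of mitochondrial and gluconeogenic genes. It stood at 34.1 and 45 CPM in the floxed livers and at 19.4 and 23.9 CPM in replicates 1 and 2 (log2 fold change -0.87, SE 0.22). Slc6a8, the creatine transporter, stood at 119 and 130 CPM against 71.5 and 48.6 CPM (log2 fold change -1.05, SE 0.28). Ndor1, a diflavin reductase of iron-sulfur cluster assembly, stood at 51.3 and 48.4 CPM against 27.9 and 21.5 CPM (log2 fold change -1.01, SE 0.20). Both were lowest in replicate 2. Rnf39, Csrnp1 and Tbc1d9 completed the set. Their log2 fold changes were -1.09 (SE 0.31), -0.72 (SE 0.27) and -1.33 (SE 0.52) in replicate 1. In replicate 2 they were -1.52 (SE 0.32), -1.27 (SE 0.27) and -1.63 (SE 0.53). Tnf stood at 1.56 to 2.82 CPM in the Yap line, so the Ctgf controls had its highest levels of the series. That also held for Ccnd1, Slc6a8, Ndor1, Rnf39, Csrnp1 and Tbc1d9. It did not hold for Ier3 and Ppargc1a, which were higher in the Yap1 knockouts.

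Lpin1 had the smallest p of the genes higher in the libraries labelled knockout. It encodes lipin 1, the phosphatidate phosphatase of triglyceride synthesis that also acts as a coactivator of PPAR-alpha. It stood at 36.9 and 33.6 CPM in the floxed livers, at 76.5 CPM in replicate 1 and at 163 CPM in replicate 2, which is 2.17-fold and 4.63-fold the control mean (log2 fold change over both 1.77, SE 0.37). Replicate 2 was the higher of the pair. Ddit4, an inhibitor of mTORC1 signalling that stress and glucocorticoids induce, stood at 9.72 and 8.02 CPM in the floxed livers and at 21.1 and 20.3 CPM in replicates 1 and 2 (log2 fold change 1.22, SE 0.26). Col15a1, a collagen of basement membranes, stood at 10.4 and 9.55 CPM against 18.1 and 17.9 CPM (log2 fold change 0.85, SE 0.22). For both of these genes the libraries labelled knockout differed from each other by less than the controls did. Pklr, the liver pyruvate kinase, stood at 81.1 and 92.9 CPM in the floxed livers and at 127 and 199 CPM (log2 fold change 0.91, SE 0.26). Pdk1, which restrains pyruvate entry into mitochondria, stood at 26.1 and 26.5 CPM against 36.8 and 42.2 CPM (log2 fold change 0.59, SE 0.18). Slc39a4, a zinc importer, stood at 20.8 and 21.3 CPM against 35.9 and 40.8 CPM (log2 fold change 0.86, SE 0.26). These 3 were higher in replicate 2 than in replicate 1. Jade2 and Mast3 had log2 fold changes of 0.72 (SE 0.29) and 0.47 (SE 0.22) in replicate 1 and of 1.09 (SE 0.29) and 0.86 (SE 0.21) in replicate 2, and Herpud1 is described with the stress genes. Lpin1 stood at 116 to 312 CPM in the Yap line, so the Ctgf controls had its lowest levels of the series. That also held for Ddit4, Col15a1, Pdk1, Jade2 and Mast3, but not for Pklr, Slc39a4 and Herpud1.

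**Figure D2:**
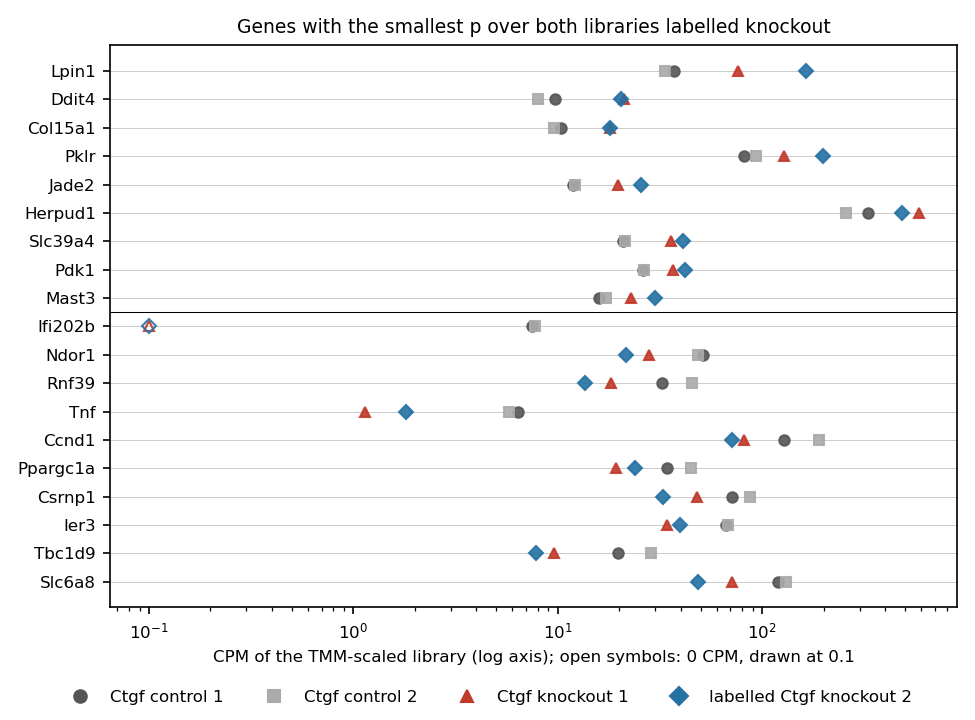
Levels in CPM (log axis) of genes higher (above the line) and lower (below it) with the smallest p among genes whose groups do not overlap; each symbol is 1 library. Ifi202b had 0 counts in both libraries labelled knockout, and Lpin1 stood at 76.5 and 163 CPM there against 36.9 and 33.6 CPM in the floxed livers.

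Each library labelled knockout was then set against the 2 controls on its own. The 2 sets of values share those controls and are given side by side. With the spread from all 8 libraries edgeR called 0 genes in either library, with 120 higher (0.857%) and 477 lower (3.41%) at an unadjusted p under 0.05 in replicate 1, and 318 higher (2.27%) and 430 lower (3.07%) in replicate 2. DESeq2 called 1 higher (0.00714%) and 39 lower (0.279%) in replicate 1, and 21 higher (0.15%) and 49 lower (0.35%) in replicate 2. With the spread from the Ctgf controls alone edgeR called 99 higher (0.74%) and 329 lower (2.46%) of 13385 genes in replicate 1, and 890 higher (6.65%) and 1165 lower (8.7%) in replicate 2. Those calls measure 1 library against the spread of a single pair. Without Yap control replicate 1 the fit of the other 7 libraries called 73 higher and 85 lower in replicate 2, and without Yap control replicate 2 it called 77 and 114; both gave 0 in replicate 1.

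By size, 474 genes (3.39%) lay over 1.5-fold above both controls in replicate 1 and 1203 (8.59%) over 1.5-fold below both. In replicate 2 these were 809 (5.78%) and 1062 (7.59%). Both libraries were past that bound in the same direction for 98 genes higher (0.7%) and 222 lower (1.59%), and in opposite directions for 190 (1.36%). Without that bound, replicate 1 lay above both controls for 40.7% of all genes and below both for 39.7%, and replicate 2 for 39.7% and 42.9%, shares to set beside each count of list members past both controls. The controls differed from each other by over 1.5-fold for 1257 genes (8.98%). Direct comparison of replicate 1 with replicate 2 gave 0 edgeR calls, with 548 genes higher (3.91%) and 660 lower (4.71%) at an unadjusted p under 0.05. DESeq2 called 77 (0.55%) and 98 (0.7%), and edgeR on the Ctgf line alone 1640 (12.3%) and 1554 (11.6%). Gene lists are therefore described by how many members lay past both controls in each library and by their median log2 fold change, which over all genes tested was -0.00086 in replicate 1 and -0.015 in replicate 2. The examples Col4a1, Col4a2, Wt1, Crp, Hspa5, Creld2, Asns, Nupr1, Xbp1, Slc7a11, Lyz2, Ccr2, Mmp12, Clec4f, S100a8, Ngp, Mpo, Csf3r, Cxcr2, Lcn2, Ccl2, Cyp2a5, Cyp2e1 and Stab2 were taken from those lists after their values were seen.

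**Figure D3:**
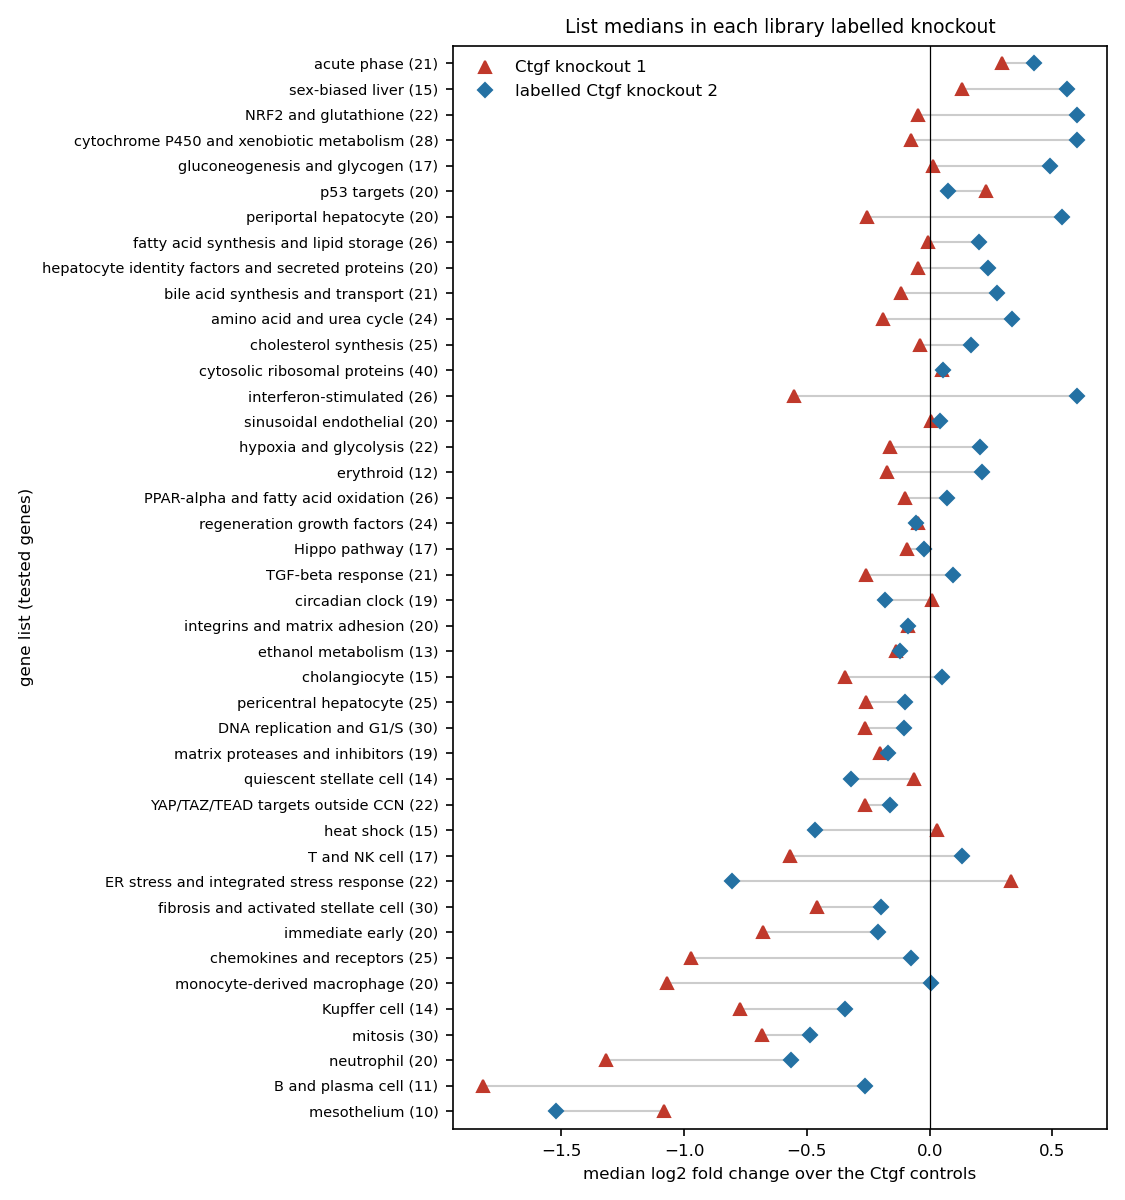
Median log2 fold change over the Ctgf controls of each gene list with at least 10 tested genes, for Ctgf knockout replicate 1 (triangles) and the library labelled knockout replicate 2 (diamonds). The mesothelium medians were -1.08 and -1.52, on the same side in both, and the ER stress medians 0.33 and -0.81, on opposite sides.

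Markers of the mesothelium, the cell layer that covers the liver capsule and a site of Wt1 expression, were lower in both libraries. All 10 listed genes had groups that did not overlap, each lower, against 16.8% of all genes. In replicate 1, 8 of the 10 lay over 1.5-fold below both controls (8.59% of all genes did). In replicate 2, 8 of the 10 did so as well (7.59% of all genes). None passed the test over both libraries. Msln, which encodes the surface protein mesothelin, stood at 5.10 and 3.95 CPM in the floxed livers and at 1.45 and 0.954 CPM in replicates 1 and 2 (log2 fold change -1.91, SE 0.39, edgeR adjusted p = 1). Muc16, a membrane mucin, stood at 2.36 and 1.42 CPM against 0.461 and 0.191 CPM, and Wt1, the transcription factor, at 1.85 and 1.31 CPM against 0.922 and 0.445 CPM. These are low levels, and the list summed to 29.9 and 25.0 CPM in the floxed livers and to 14.9 and 12.0 CPM in those labelled knockout. In bulk liver, fewer cells of a type and less RNA per cell cannot be told apart, here and for every cell type below.

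More matrix genes were lower than higher in each library, less clearly so in replicate 2. Of 30 genes of fibrosis and activated stellate cells, 25 lay below and 2 above both controls in replicate 1 (39.7% and 40.7% of all genes). In replicate 2, 17 lay below and 12 above (42.9% and 39.7% of all genes), so the latter was near the share of all genes. Groups were apart for 14 in the lower direction and for 1, Fn1, in the higher, against 16.8% and 15.5% of all genes. None passed the test. Col1a1, the main fibrillar collagen of scar, stood at 21.4 and 15.4 CPM in the floxed livers and at 12.0 and 12.6 CPM in replicates 1 and 2 (log2 fold change -0.58, SE 0.26). Col5a2, which nucleates collagen fibrils, stood at 11 and 7.99 CPM against 4.97 and 4.13 CPM (log2 fold change -1.06, SE 0.42). Col1a2 stood at 23.7 and 19.2 CPM against 15.6 and 9.86 CPM. For each of these the controls differed from each other by as much as the nearer control differed from a library labelled knockout, or nearly so. Acta2, the smooth muscle actin of activated stellate cells, stood at 2.87 and 3.53 CPM in the floxed livers and at 1.81 and 3.02 CPM, so its groups overlapped. Timp1, an inhibitor of matrix proteases, stood at 8.51 and 3.67 CPM against 2.77 and 8.90 CPM and also overlapped. The basement membrane gene Col4a1 and its partner Col4a2 parted the libraries labelled knockout, at 58.8 and 103 CPM and at 35.4 and 70.4 CPM in replicates 1 and 2. Their controls stood at 71.0 and 72.5 CPM and at 46.1 and 47.2 CPM. The list's median log2 fold change was -0.46 in replicate 1 and -0.20 in replicate 2, the latter -0.13 without Ctgf control replicate 2. Mesothelial markers, of cells that also make collagen, were lower too, and their part in these values was not tested. Listed TGF-beta response genes had medians of -0.26 and 0.09.

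YAP, TAZ and TEAD targets outside the CCN family had medians of -0.26 in replicate 1 and -0.16 in replicate 2. Of 22 tested, 11 had groups apart in the lower direction and 1 in the higher (16.8% and 15.5% of all genes), and most of those 11 lay within 1.5-fold of the controls. Ptpn14, a phosphatase that binds YAP and restrains it, stood at 96.0 and 98.8 CPM in the floxed livers, at 67.4 CPM in replicate 1 and at 25.7 CPM in replicate 2, where its log2 fold change was -1.92 (SE 0.26, edgeR adjusted p = 0.51). Ankrd1 stood at 1.5 and 0.938 CPM against 0.497 and 1.14 CPM and overlapped. Yap1 itself ranged from 132 to 139.5 CPM over the 4 libraries. Wwtr1, which encodes TAZ, stood at 101 and 95.4 CPM in the floxed livers and at 104 and 63.6 CPM in replicates 1 and 2.

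Of 30 mitosis genes 15 had groups apart in the lower direction and 1 in the higher, against 16.8% and 15.5% of all genes, with medians of -0.68 and -0.49 in replicates 1 and 2. Mki67, the usual marker of cycling cells, stood at 1.75 and 2.76 CPM in the floxed livers and at 0.887 and 1.21 CPM, and Prc1, which bundles the midzone spindle, at 3.16 and 3.75 CPM against 1.42 and 1.56 CPM. No mitosis gene passed in either library with the spread from the Ctgf controls alone. Cdkn1a, which encodes the cell cycle inhibitor p21, stood at 96.3 and 93.0 CPM in the floxed livers and at 139 and 107 CPM. It is 1 of 8 of the 20 p53 target genes whose groups were apart in the higher direction, and 1 was apart in the lower (15.5% and 16.8% of all genes).

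Acute phase proteins, which hepatocytes secrete in inflammation, lay on the higher side. Of 21 listed, 10 had groups apart in the higher direction and none in the lower, against 15.5% and 16.8% of all genes, and the medians were 0.29 and 0.42, or 0.17 and 0.27 without Ctgf control replicate 2. The 3 fibrinogen chains were among them. Fgb stood at 8493 and 6714 CPM in the floxed livers and at 14553 and 12001 CPM in replicates 1 and 2 (log2 fold change over both 0.80, SE 0.35, edgeR adjusted p = 1). Fgg stood at 6498 and 5417 CPM against 11133 and 9868 CPM. Lbp, the lipopolysaccharide-binding protein, stood at 125 and 99.9 CPM in the floxed livers, at 130 CPM in replicate 1 and at 277 CPM in replicate 2, so it was apart mainly through replicate 2. Crp was within the controls in replicate 1 (257 CPM, controls 308 and 240 CPM) and at 769 CPM in replicate 2.

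Genes of the unfolded protein response and the integrated stress response parted the libraries labelled knockout. These programmes answer misfolded protein in the endoplasmic reticulum (ER) and amino acid shortage by raising chaperones and amino acid synthesis. Of 22 listed genes 18 lay above both controls in replicate 1 (40.7% of all genes did), though only 2 by over 1.5-fold (3.39% of all genes). In replicate 2, 18 lay below both controls (42.9% of all genes did), 14 of them by over 1.5-fold, where 7.59% of all genes did. The medians were 0.33 and -0.81, and over both libraries -0.09. Hspa5, which encodes the ER chaperone BiP, stood at 8365 and 7462 CPM in the floxed livers, at 10895 CPM in replicate 1 and at 3157 CPM in replicate 2. Creld2, a secreted partner of ER folding, stood at 320 and 252 CPM, then at 553 and 108 CPM. Asns, which makes asparagine and is a target of Atf4, stood at 95.6 and 92.9 CPM, then at 132 and 49.5 CPM. For all 3 the controls lay between the libraries labelled knockout. The log2 difference of replicate 1 from replicate 2 was 1.79 (SE 0.45) for Hspa5 and 2.36 (SE 0.31) for Creld2, with edgeR adjusted p of 0.41 and 0.39. DESeq2 gave 0.00942 and 9.92e-08, and edgeR on the Ctgf line alone 0.00572 and 0.00389. In that last fit 17 of the 22 genes were called higher in replicate 1 than in replicate 2 (12.3% of all genes were) and 2 lower (11.6% of all genes were).

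Not every gene of the list followed. Herpud1, which feeds misfolded ER proteins to degradation, stood at 328 and 256 CPM in the floxed livers and at 582 and 485 CPM in replicates 1 and 2, above both controls in each (log2 fold change over both 0.87, SE 0.25, edgeR adjusted p = 1). Nupr1, a stress-induced chromatin protein, stood at 79.3 and 46.3 CPM, then at 50.6 and 199 CPM. Xbp1, whose spliced form drives the ER response, ranged from 286 to 309 CPM over the 4 libraries. Splicing of Xbp1 is not seen in gene counts. The cystine importer Slc7a11, listed with the NRF2 targets and also induced by Atf4, stood at 262 and 164 CPM in the floxed livers, at 291 CPM in replicate 1 and at 40.7 CPM in replicate 2 (log2 fold change in replicate 2 -2.39, SE 0.48, edgeR adjusted p = 0.65). Heat shock genes of the cytosol had medians of 0.03 and -0.47. Of these 15 genes 12 lay below both controls in replicate 2 (42.9% of all genes did). Hsp90aa1 stood at 262 and 251 CPM in the floxed livers and at 270 and 158 CPM in replicates 1 and 2.

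The promoters of 3 of these genes are printed because Creld2 and Hspa5 parted the libraries and Herpud1 did not. The ER stress response element was searched on both strands as CCAAT, 9 bases of any kind and CCACG, and lies in 39 of 32851 windows (0.119%). It lies in 4 of the 22 listed genes (18.2%), Hspa5, Creld2, Hsp90b1 and Calr. The related element ERSE-II, searched on both strands as ATTGG, 1 base of any kind and CCACG, lies in 12 windows (0.0365%) and, of the listed genes, in Herpud1 alone. Capitals mark the match in the 250 bases before the start, which begins 65 bases before it in Hspa5 (chr2:34771840-34772089, plus strand), 126 bases in Creld2 (chr15:88819396-88819645, plus strand, match on the opposite strand) and 52 bases in Herpud1 (chr8:94386179-94386428, plus strand).
Hspa5: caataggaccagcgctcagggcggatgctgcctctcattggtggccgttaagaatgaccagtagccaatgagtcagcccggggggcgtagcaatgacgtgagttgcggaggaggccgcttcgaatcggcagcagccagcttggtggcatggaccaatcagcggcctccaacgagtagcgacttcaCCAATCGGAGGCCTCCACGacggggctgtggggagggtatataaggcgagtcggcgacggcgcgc
Creld2: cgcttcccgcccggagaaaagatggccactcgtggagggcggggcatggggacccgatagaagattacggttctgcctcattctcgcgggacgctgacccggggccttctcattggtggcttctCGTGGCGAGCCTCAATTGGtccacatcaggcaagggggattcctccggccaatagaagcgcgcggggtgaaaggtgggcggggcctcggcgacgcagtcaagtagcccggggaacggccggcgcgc
Herpud1: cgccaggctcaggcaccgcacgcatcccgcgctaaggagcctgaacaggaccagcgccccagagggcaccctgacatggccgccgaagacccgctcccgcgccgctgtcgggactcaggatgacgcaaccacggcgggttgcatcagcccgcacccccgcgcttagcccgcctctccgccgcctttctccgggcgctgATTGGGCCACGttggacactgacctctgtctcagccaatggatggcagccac
A match describes these letters and does not show that a factor binds them.

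**Figure D4:**
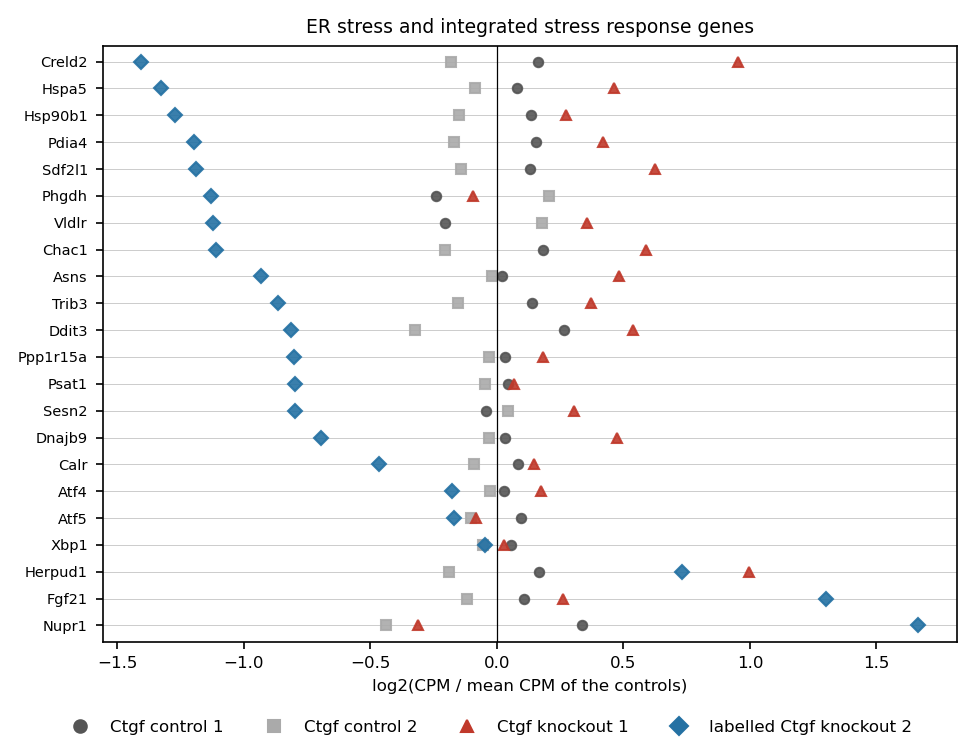
Each library's level over the mean of the controls (log2 scale, controls shown as grey symbols) for 22 genes of the ER stress and integrated stress response, ordered by the library labelled knockout replicate 2. Replicate 1 lay above both controls for 18 genes and replicate 2 below both for 18, with Herpud1 above both controls in each.

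Genes of infiltrating monocytes and macrophages were low in replicate 1, while in replicate 2 they lay on both sides of the controls. Of 20 listed genes 18 lay below both controls in replicate 1, 13 of them by over 1.5-fold (8.59% of all genes did), and the median was -1.07. In replicate 2, 8 lay below and 9 above both controls (42.9% and 39.7% of all genes), 3 over 1.5-fold higher (5.78% of all genes). The median there was 0.0043. Lyz2, the lysozyme of myeloid cells, stood at 255 and 279 CPM in the floxed livers, at 62.6 CPM in replicate 1 and at 208 CPM in replicate 2 (log2 fold change in replicate 1 -2.09, SE 0.41, edgeR adjusted p = 1, DESeq2 adjusted p = 0.00178). Ccr2, the receptor that brings monocytes into tissue, stood at 17.7 and 18.6 CPM, then at 4.72 and 14.3 CPM. Mmp12, the macrophage elastase, stood at 29.3 and 37.2 CPM, then at 6.56 and 81.1 CPM. Lyz2 and Ccr2 were thus closer to the controls in replicate 2, and Mmp12 lay on either side of them. The log2 difference of replicate 1 from replicate 2 was -3.63 (SE 1.00) for Mmp12 (edgeR adjusted p = 0.44, DESeq2 adjusted p = 0.002). The 2 listed genes that were not lower in replicate 1, Fn1 and Arg1, are also expressed by hepatocytes and held most of the list's summed level, which was 5226 and 5026 CPM in the floxed livers and 5571 and 5372 CPM in replicates 1 and 2.

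Kupffer cells, the resident macrophages of liver, showed a like order. All 14 tested markers lay below both controls in replicate 1 (39.7% of all genes did), 6 of them by over 1.5-fold (8.59% of all genes). In replicate 2, 7 lay below both (42.9% of all genes), 1 of them by over 1.5-fold (7.59% of all genes). The counts of replicate 2 were thus near the shares of all genes. The medians were -0.77 and -0.34. Without Ctgf control replicate 2 they were -0.40 and 0.04, so the direction in replicate 2 rested on that control, and without Ctgf control replicate 1 the second was -0.62. Timd4, a receptor for dying cells, stood at 19.5 and 24.3 CPM in the floxed livers, at 7.02 CPM in replicate 1 and at 13.7 CPM in replicate 2. Clec4f, found on Kupffer cells alone among macrophages, stood at 95.4 and 186 CPM, then at 85.7 and 87.1 CPM. Ctgf control replicate 2 was the higher control for each of the 14 markers, and for Clec4f it lay nearly as far from the other control as from the libraries labelled knockout. Marco, a scavenger receptor, stood at 165 and 229 CPM, then at 47 and 224 CPM (log2 fold change in replicate 1 -2.07, SE 0.32, edgeR adjusted p = 1, DESeq2 adjusted p = 2.62e-05). It lay 4.19-fold below the control mean in replicate 1 and between the controls in replicate 2.

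More neutrophil genes were lower than higher in each library. Of 20 listed, 12 had groups apart in the lower direction and none in the higher, against 16.8% and 15.5% of all genes, with medians of -1.32 and -0.56. Retnlg, a peptide made by neutrophils, stood at 9.95 and 13.2 CPM in the floxed livers and at 3.94 and 3.85 CPM in replicates 1 and 2 (log2 fold change -1.57, SE 0.46, edgeR adjusted p = 1). S100a8, a calprotectin subunit, stood at 42.3 and 49.1 CPM, then at 16.7 and 32.2 CPM. Ltf, Ngp and Mpo, which encode granule proteins, were lowest in replicate 2, and Mmp8, also a granule gene, was not, at 2.52 and 3.18 CPM in replicates 1 and 2. Ltf, which encodes lactoferrin, stood at 6.63 and 7.14 CPM in the floxed livers, at 1.53 CPM in replicate 1 and at 0.191 CPM, or 6 counts, in replicate 2 (log2 fold change in replicate 2 -5.14, SE 1.57, edgeR adjusted p = 0.78, DESeq2 adjusted p = 0.00465). Ngp, the neutrophilic granule protein, stood at 8.93 and 8.79 CPM, then at 2.06 and 0.286 CPM, and Mpo, myeloperoxidase, at 3.38 and 3.44 CPM, then at 1.21 and 0.191 CPM. The receptors Csf3r and Cxcr2 stood at 35.4 and 10.4 CPM in replicate 2, above both controls, and at 13.8 and 4.04 CPM in replicate 1, below both. Lcn2, at 1495 to 2629 CPM, is also made by injured hepatocytes and overlapped. Chemokines and their receptors had medians of -0.97 and -0.08. In replicate 1, 19 of 25 lay below both controls and 15 over 1.5-fold lower, against 39.7% and 8.59% of all genes. Ccl3 stood at 3.86 and 4.18 CPM in the floxed livers and at 0.993 and 2.64 CPM, and Ccl2, the ligand of Ccr2, at 17.1 and 14.5 CPM, then at 4.22 and 15 CPM. Of 20 immediate early genes 17 lay below and 3 above both controls in replicate 1 (39.7% and 40.7% of all genes). In replicate 2, 11 lay below and 7 above (42.9% and 39.7% of all genes). B and plasma cell genes, all but Xbp1, Pax5 and Jchain under 2 CPM, had medians of -1.82 and -0.26, and the second turned to 0.11 without Ctgf control replicate 2.

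**Figure D5:**
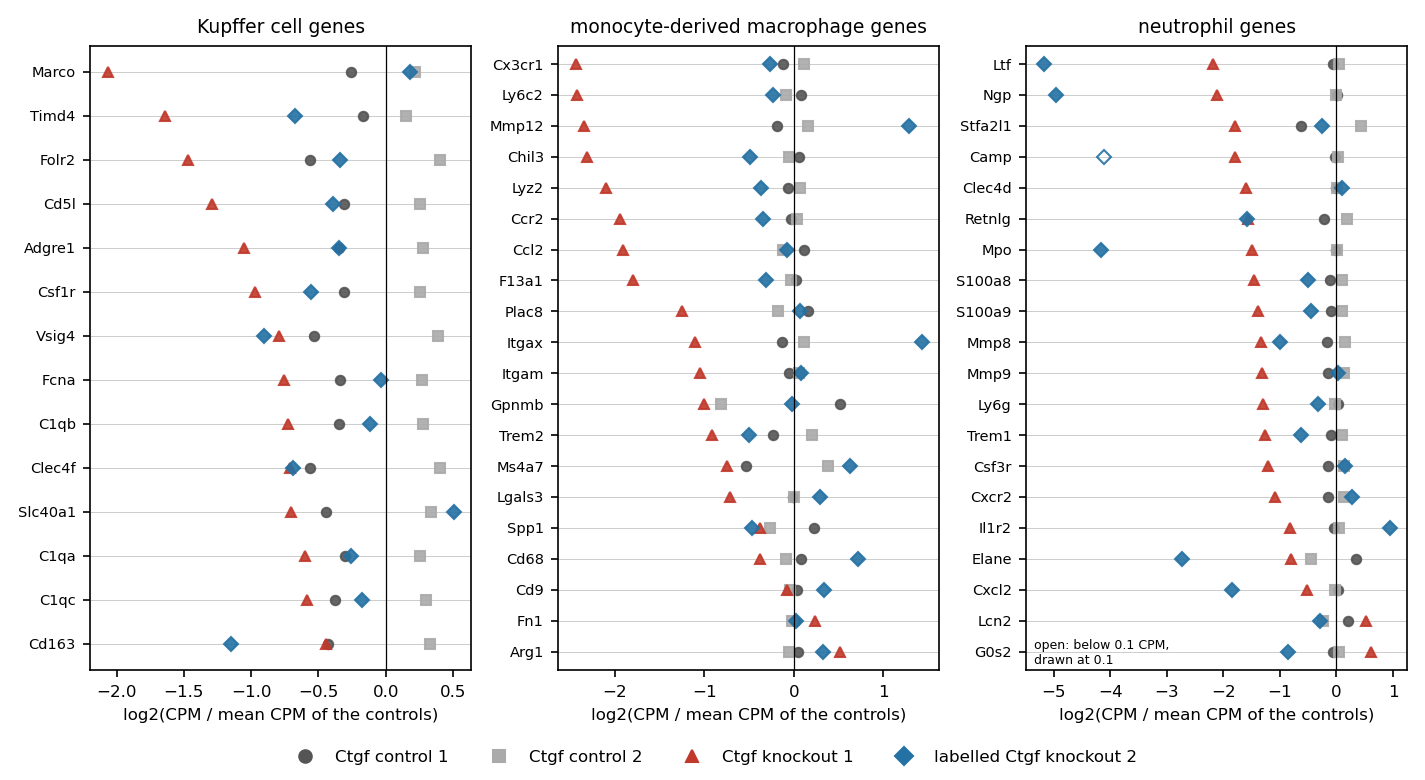
Each library's level over the mean of the controls (log2 scale) for tested genes of Kupffer cells, monocyte-derived macrophages and neutrophils, ordered by Ctgf knockout replicate 1. Replicate 1 lay below both controls for 14 of 14, 18 of 20 and 18 of 20 genes, and replicate 2 for 7, 8 and 14, with Ltf at 0.191 CPM lowest relative to its controls there.

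Interferon-stimulated genes parted the libraries labelled knockout in the opposite sense to the ER genes. Of 26 listed, 22 lay below both controls in replicate 1 (39.7% of all genes did) and 24 above both in replicate 2 (39.7%), with medians of -0.55 and 0.60. Cxcl9, a chemokine induced by interferon-gamma, stood at 9.56 and 7.79 CPM in the floxed livers, at 3.48 CPM in replicate 1 and at 41.6 CPM in replicate 2. Its log2 difference of replicate 1 from replicate 2 was -3.58 (SE 0.59, edgeR adjusted p = 0.39, DESeq2 adjusted p = 5.21e-06). Ifit1, an antiviral RNA-binding protein, stood at 7.78 and 8.42 CPM in the floxed livers and at 5.39 and 17.6 CPM in replicates 1 and 2. H2-Aa, the alpha chain of an MHC class II molecule, stood at 22.9 and 22.4 CPM, then at 7.84 and 42.2 CPM (log2 fold change in replicate 1 -1.53, SE 0.23, edgeR adjusted p = 1). In each of these genes the controls lay between the libraries labelled knockout.

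Hepatocyte metabolic lists differed in how far replicate 2 lay from the controls. Alb stood at 37334 and 35393 CPM in the floxed livers, at 33585 CPM in replicate 1 and at 69274 CPM in replicate 2. Lists of cytochrome P450 and xenobiotic metabolism, NRF2 and glutathione, periportal genes and gluconeogenesis had medians of 0.60, 0.60, 0.54 and 0.49 in replicate 2, and of -0.08, -0.05, -0.26 and 0.01 in replicate 1. Above both controls in replicate 2 were 22 of 28, 16 of 22, 15 of 20 and 12 of 17 genes, against 39.7% of all genes. These lists are named because their medians were high there. Ethanol metabolism (-0.12) and PPAR-alpha with fatty acid oxidation (0.07) were not high in replicate 2. In replicate 1, 13 of 20 periportal genes lay below both controls (39.7% of all genes did). Cyp2a5, a coumarin hydroxylase with a near-identical relative, Cyp2a4, stood at 47 and 57.6 CPM in the floxed livers, at 73.2 CPM in replicate 1 and at 301 CPM in replicate 2 (log2 fold change in replicate 2 2.52, SE 1.54, edgeR adjusted p = 1). G6pc, which releases glucose from the liver, stood at 155 and 153 CPM, then at 225 and 430 CPM. Cyp2f2, a periportal marker, stood at 43.5 and 57.4 CPM, then at 48.4 and 176 CPM. G6pc and Cyp2a5 lay above the controls in both libraries, and Cyp2f2 in replicate 2 alone. Cyp8b1, which makes cholic acid, was highest in replicate 1, at 26.2 CPM against 11.4 CPM in replicate 2 and 6.18 and 6.65 CPM in the floxed livers (log2 fold change in replicate 1 2.03, SE 0.72, edgeR adjusted p = 1). Cyp2e1, which activates CCl4, ranged from 769 to 871 CPM over the 4 libraries.

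Named for replicate 1 alone by the smallest p were Acpp, Il23a, Alg12 and Rab39b as higher, and Hcar2, H2-Aa and Marco, beside Ifi202b, as lower. Acpp, an acid phosphatase, stood at 5.74 and 3.61 CPM in the floxed livers, at 17.9 CPM in replicate 1 and at 6.20 CPM in replicate 2 (log2 fold change in replicate 1 1.94, SE 0.36). Il23a, the p19 subunit of interleukin 23, stood at 0.829 and 0.313 CPM, then at 5.43 and 1.49 CPM (log2 fold change 3.25, SE 0.68). Hcar2, a receptor for nicotinic acid and ketone bodies on myeloid cells and adipocytes, stood at 5.26 and 5.17 CPM, then at 0.958 and 5.12 CPM (log2 fold change -2.44, SE 0.36). In Acpp and Il23a replicate 2 also lay above both controls, and in Hcar2 it lay within 1.5-fold of them. Alg12, a mannosyltransferase of the ER, was 1.00 above the controls on the log2 scale (SE 0.23) in replicate 1 and stood at 15.7 CPM in replicate 2 against 23.4 and 20.0 CPM in the floxed livers. Alg12 (chromosome 15, 88805243 to 88819318) lies beside Creld2, which starts at 88819646 and parted the libraries in the same direction. Whether these are separate results was not tested. Rab39b stood at 0.893 and 1.25 CPM in the floxed livers and at 5.11 and 0.223 CPM (log2 fold change in replicate 1 2.25, SE 0.53).

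Named for replicate 2 alone were Lpin1, Tsc22d3, Ak4 and Sorcs2 as higher, and Atp13a4, Ptpn14 and Creb5, beside Ifi202b, as lower, each with an edgeR adjusted p of 0.51. Tsc22d3, a glucocorticoid-induced leucine zipper gene, stood at 38.5 and 36.7 CPM in the floxed livers, at 42.4 CPM in replicate 1 and at 95.1 CPM in replicate 2 (log2 fold change in replicate 2 1.34, SE 0.19). Ak4, a mitochondrial adenylate kinase, stood at 40.8 and 36.7 CPM, then at 41.5 and 96.4 CPM (log2 fold change 1.31, SE 0.19). Atp13a4, a cation-transporting ATPase, stood at 112 and 90.7 CPM, then at 77.4 and 9.95 CPM (log2 fold change -3.34, SE 0.44). It lay 10.2-fold below the control mean in replicate 2, and replicate 1 lay below both controls as well. Sorcs2 stood at 2.49 and 1.51 CPM, then at 2.73 and 14.4 CPM (log2 fold change 2.85, SE 0.42). Creb5 stood at 16.5 and 13.3 CPM, then at 15.6 and 3.53 CPM (log2 fold change -2.07, SE 0.29). Both stood near the controls in replicate 1. Without Yap control replicate 1 or 2 the edgeR adjusted p of these 7 genes ranged from 0.0259 to 0.0436.

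Some lists had medians near those of all genes in both libraries, and others in replicate 1 alone. Sinusoidal endothelial genes had medians of 0.0043 and 0.041, and Stab2, a scavenger receptor of these cells, ranged from 53 to 63.8 CPM. None of these 20 genes lay over 1.5-fold above or below both controls in replicate 1 (3.39% and 8.59% of all genes did). None did in replicate 2 either (5.78% and 7.59% of all genes). Cytosolic ribosomal proteins had medians of 0.05 and 0.06. Circadian clock genes, at 0.01 and -0.18, and genes of cholesterol synthesis, at -0.04 and 0.17, lay further from all genes in replicate 2. Pericentral hepatocyte genes, of the zone that CCl4 injures, were not among these lists in replicate 1. Their median was -0.26 there, against -0.00086 for all genes, and -0.10 in replicate 2, or 0.06 without Ctgf control replicate 2. Members of the list went both ways. Of 25, 2 lay over 1.5-fold above and 5 below both controls in replicate 1 (3.39% and 8.59% of all genes). In replicate 2, 5 lay above and 4 below by that bound (5.78% and 7.59% of all genes). Groups were apart for 3 in the higher and 6 in the lower direction (15.5% and 16.8% of all genes). Of the 6 Aldh1a1, a retinal dehydrogenase, stood at 523 and 532 CPM in the floxed livers and at 307 and 368 CPM in replicates 1 and 2. Axin2, a target of Wnt signals from the central vein, stood at 15.2 and 13.5 CPM against 9.29 and 6.55 CPM.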

How the data were processed

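RNA of whole liver was sequenced in 8 libraries of 4 groups, 2 per group, with no pairing named for the Ctgf line. The authors deposited 1 table of raw read counts per gene for 22155 genes, 4534 of them without any count. The submitters' processing notes name bcl2fastq 2.20.0.422, STAR 2.6.0a, HTSeq 0.6.1 and the builds mm10 and GRCm38; their settings, and whether counting used strand, were not stated in the labels or notes. Genes were tested where edgeR's filterByExpr kept them (13999 genes). Fits used edgeR 4.0.16 in R 4.3.3 with TMM factors, the quasi-likelihood F test, all 8 libraries for the spread, and Benjamini-Hochberg adjustment over all genes tested, called at an adjusted p under 0.05. One fit had the 4 groups, another gave each library labelled Ctgf knockout its own group, so its 1 library is assumed to vary like the others. Biological coefficients of variation were 27.2% (4 residual degrees of freedom) and 26.5% (3). Standard errors are of the log2 fold change. Intervals were not used, and a floor of 3 counts, which covers counting error only, was 0.0853 to 0.106 CPM in the Ctgf line. DESeq2 1.42.0, limma-voom (limma 3.58.1), other scalings and filters, the Ctgf line alone, a replicate block and leaving out each library were alternatives. The scripts were tested on simulated data.

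The Ctgf replicates differed by more than sampling noise (chi-square per degree of freedom 15.1 between the controls and 167.3 between the libraries labelled knockout). Genes named by rule were a fixed set including the CCN family, up to 10 per direction for both libraries and up to 8 for each library by adjusted p and size, filled up to 10 and 4 by the smallest p with at least 5 CPM in a group, and up to 3 per list by the smallest p. The members and the 47 gene lists (834 of 887 genes tested) were chosen with earlier results of these data known. Positions came from RefSeq, which matched 20720 genes by symbol and 686 by synonym and left 749 unmatched. Some results within these rules are not reported here.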

Additional observations from a re-analysis of the deposited data

How the results depend on the processing

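Counts over both libraries labelled knockout were 0 in each direction under every edgeR alternative; DESeq2 gave 1 higher and 3 lower and limma-voom 1 lower. DESeq2 gave 1 higher and 39 lower in replicate 1, 21 and 49 in replicate 2, and 77 and 98 between them. With the Ctgf line alone these were 99 and 329, 890 and 1165, and 1640 and 1554. Leaving out 1 library at a time, counts in replicate 2 ranged from 0 to 77 higher and 0 to 114 lower, and between the libraries labelled knockout from 0 to 517 and 0 to 513; values above 0 came without Yap control replicate 1 (73 and 85; 466 and 492) or without Yap control replicate 2 (77 and 114; 517 and 513). Every fit with 1 library left out estimated the dispersion from fewer libraries. Leaving out either Yap control leaves 1 in that group, so the difference between the Yap controls no longer enters the spread. Those controls correlated at 0.933, against 0.984 for the Yap1 knockouts and 0.993 for the Ctgf controls. The exocrine pancreas sum was 18070 CPM in Yap control replicate 2 and 3.485 CPM in replicate 1. The part of these values in the counts was not tested.

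Ctgf over both libraries turned from -0.09 to 0.01 without Ctgf control replicate 2 and to 0.71 without Ctgf knockout replicate 1, and was -1.92 without the library labelled knockout replicate 2, a range of -1.92 to 0.71. In replicate 1 alone Ctgf passed with DESeq2 (-1.93, adjusted p = 0.00832) and with edgeR on the Ctgf line alone (-1.93, adjusted p = 0.014), and in replicate 2 on the Ctgf line alone (0.69, adjusted p = 0.019). With a replicate block edgeR called 0 and 0 genes and gave Ctgf -0.59 (adjusted p = 1). The correlation of same-numbered deviations was 0.0678 in the Ctgf line. It was 0.0716 in the Yap line, where the control titles do name a knockout sample. The check therefore cannot tell whether same-numbered Ctgf samples were paired. Other scalings moved no list median by over 0.05; a filter of 1 CPM in 2 libraries turned the T and NK cell median in replicate 1 from -0.57 to 0.05 and moved that of B and plasma cell genes by 1.2, to -0.66; no low-count filter moved medians by up to 0.37. Of all list medians under the alternatives, single libraries left out included, 141 moved by more than the spread between replicates and 1833 did not. That spread was the SD of a list's medians in replicates 1 and 2. It is wide where those libraries parted and narrow where they matched, so these counts do not measure how stable the medians were. Of the single genes named, 710 values kept their side of the threshold and 79 passed under an alternative. The effect of depth, at least 26904021 counts per library, was not tested.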
